A study of Mus musculus with 18 samples.

Results

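Hhipl1, Gfra1, Sspo, 1810010H24Rik, 4930438A08Rik, Slco4a1 and Ceacam1 were 7 of the 57180 genes in the deposited table, and they were chosen by measured values, as genes among the largest rises or falls with AOA in these same counts that belonged to none of the better known programs. The choice gave no numerical threshold. AOA (aminooxyacetic acid) inhibits aminotransferases, the enzymes that move amino groups between amino acids and keto acids and that make aspartate from oxaloacetate. RNA was sequenced from L929 cells, an established line of mouse fibroblasts with the wild-type genotype, in 6 groups of 3 independent cultures. Mock cells carried the label DMSO, AOA was given at 0.5 mM, and AOA+Asp cells received the same AOA dose with 20 mM aspartate. HT-DNA cells were transfected with 0.5 μg/ml herring testis DNA, which activates the cytosolic DNA sensor cGAS, for 6 h. HT-DNA+AOA cells received AOA 1 h before the DNA, and HT-DNA+AOA+Asp cells received aspartate as well. No duration of AOA was recorded here for cells without HT-DNA, so whether they had AOA for the same time is not known. No group received aspartate alone, and the labels do not say whether cells without HT-DNA were given the transfection reagent, so each effect below holds for these combinations in this 1 line.

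The 7 genes have different known roles. Hhipl1 encodes a secreted relative of Hhip, the protein that binds Hedgehog ligands. Gfra1 is the co-receptor, anchored in the membrane by a lipid, that presents GDNF to the receptor tyrosine kinase Ret. Sspo encodes SCO-spondin, a giant secreted protein with thrombospondin repeats that is known from the subcommissural organ of the brain. 4930438A08Rik is annotated in the deposited table as an L-amino-acid oxidase, an enzyme that removes the amino group of amino acids by oxidation. 1810010H24Rik is known only by its clone name. Slco4a1 encodes an organic anion transporter that carries thyroid hormones, and Ceacam1 encodes an adhesion molecule of the immunoglobulin superfamily with inhibitory signaling motifs in its long tail.

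Promoter windows of the 7 genes were examined because the genes were chosen for large rises or falls with AOA. They were read from RefSeq on GRCm38.p6, from 250 bases before each annotated start to 50 after it. All 7 genes were matched, with 8 windows because Slco4a1 has 2 starts. Both strands were searched for the letters of 7 motifs, and the 3 windows that held any of them are shown, with the matches in capitals. The windows lie at chr11:58274578-58274877 on the plus strand, chr19:58455349-58455648 on the minus strand and chr7:25477576-25477875 on the minus strand, in this order.
4930438A08Rik: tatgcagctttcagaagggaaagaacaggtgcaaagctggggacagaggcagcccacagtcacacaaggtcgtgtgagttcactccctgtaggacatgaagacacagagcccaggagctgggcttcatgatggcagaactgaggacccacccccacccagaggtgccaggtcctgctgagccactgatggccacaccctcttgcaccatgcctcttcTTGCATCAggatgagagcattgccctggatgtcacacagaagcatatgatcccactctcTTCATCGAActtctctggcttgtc
Gfra1: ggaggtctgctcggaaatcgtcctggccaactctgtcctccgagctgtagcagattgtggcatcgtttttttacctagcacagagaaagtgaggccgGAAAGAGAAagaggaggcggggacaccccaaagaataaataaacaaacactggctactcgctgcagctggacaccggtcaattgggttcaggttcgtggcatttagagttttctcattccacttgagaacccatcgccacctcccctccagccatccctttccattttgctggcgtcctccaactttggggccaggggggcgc
Ceacam1: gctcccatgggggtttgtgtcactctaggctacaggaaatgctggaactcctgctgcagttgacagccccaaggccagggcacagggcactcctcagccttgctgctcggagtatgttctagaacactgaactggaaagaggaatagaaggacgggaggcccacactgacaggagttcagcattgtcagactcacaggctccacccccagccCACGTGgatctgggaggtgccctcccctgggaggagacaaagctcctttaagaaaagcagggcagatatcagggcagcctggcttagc

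The window of 4930438A08Rik held the letters TGATGNAA of the amino acid response element, the sequence that ATF4 is known to bind, as TTGCATCA on the printed strand at position -33 from the start. Of all 32851 windows in the RefSeq table, 3.97% held these letters. The same window held TTCNNNGAA, the STAT motif, which was in 8.3% of all windows. The window of Gfra1 held GAAANNGAA, the IRF motif, at position -153, a match found in 8.56% of all windows. That of Ceacam1 held CACGTG, the E-box, at position -38, and 7.15% of all windows had one. The hypoxia core ACGTG, in 19.6% of all windows, was found only inside this E-box. TGACGTCA (CRE, 1.79% of all windows) and TGANTCA (AP-1, 7.81%) were in 0 of the 8 windows. These matches describe letters and say nothing of whether a factor was bound.

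The libraries held 17901546 to 24057284 counts, so 1 count was worth 0.0421 to 0.0596 CPM (counts per 1000000, relative to library sizes scaled by edgeR's TMM method). The labelled cell type was checked against markers. Of 12 fibroblast markers 9 passed the filter on low counts, with Vim, Sparc and Pdgfrb among the most abundant, and their summed level was 3060 to 3870 CPM over the 18 libraries, although Thy1, Lum and Dcn were near 0. Epithelial markers summed to 0.242 to 1.11 CPM with Cldn4 at 0, and endothelial and neural markers to 0.0467 to 0.836 and 0.101 to 0.731 CPM. The 6 leukocyte markers summed to 110 to 155 CPM, nearly all of it Cd68, while Ptprc, Cd3e and Adgre1 were at 0. The 3 HT-DNA+AOA libraries differed more from each other than other replicates did. A chi-square of their counts over genes gave 16.9 to 62.4 per degree of freedom for each pair, against 2.72 to 12.4 for pairs within the other groups.

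The counts of 5 genes were near the limit of detection except in cells that received AOA without aspartate. Hhipl1 had 3, 3 and 1 counts in the 3 Mock libraries and 2, 2 and 3 with HT-DNA. It had 48, 40 and 32 counts with AOA and 64, 53 and 45 with HT-DNA+AOA. It had 5, 3 and 6 counts with AOA+Asp and 3, 2 and 4 with HT-DNA+AOA+Asp. All 6 libraries with AOA and no aspartate lay above all 12 others. The choice of genes favours this, and for how many of all genes it held was not counted. In CPM the means were 2.02 ± 0.407 (SD, n = 3) with AOA and 2.92 ± 0.371 with HT-DNA+AOA, against 0.103 ± 0.0484 in Mock cells.

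Sspo was the most counted of the 5 genes. Mock libraries had 4, 2 and 5 counts and HT-DNA libraries had 5, 1 and 6. With AOA there were 53, 75 and 49 counts and with HT-DNA+AOA there were 63, 53 and 59. Aspartate libraries had 3, 4 and 3 counts, and 1, 3 and 4 where HT-DNA was also given. The libraries with AOA and no aspartate again lay above all others, which the choice of genes favours. The level was 2.94 ± 0.251 CPM with AOA and 0.166 ± 0.0737 CPM in Mock cells.

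Gfra1, the GDNF co-receptor, had 3, 2 and 0 counts in Mock cells and 31, 24.5 and 29 with AOA. HT-DNA libraries had 1, 3 and 2 counts and HT-DNA+AOA libraries had 28.1, 27.3 and 22.6. With aspartate the counts were 1, 3 and 1 without HT-DNA and 0, 3 and 4 with it. Its level with AOA was 1.44 ± 0.357 CPM, and with HT-DNA+AOA it was 1.41 ± 0.049 CPM, so these groups overlapped. Some of its deposited values, like those of Ceacam1, are estimates that are not whole numbers.

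1810010H24Rik, the gene without a known role, had 2, 2 and 1 counts in Mock cells and 24, 25 and 17 with AOA. It had 1, 4 and 1 with HT-DNA and 22, 14 and 20 with HT-DNA+AOA. With aspartate, 7, 2 and 3 counts were found without HT-DNA and 1, 2 and 5 with it. Its AOA level was 1.10 ± 0.129 CPM against 0.0741 ± 0.0232 CPM in Mock cells.

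4930438A08Rik, annotated as an amino-acid oxidase, had the fewest counts of the 5 with AOA alone, though not with HT-DNA+AOA. It had 1, 0 and 1 counts in Mock cells and 0, 1 and 0 with HT-DNA. With AOA it had 22, 10 and 12 counts, and with HT-DNA+AOA it had 36, 17 and 34. All 3 AOA+Asp libraries were at 0, and the HT-DNA+AOA+Asp libraries had 3, 1 and 1. Its replicates spread widely, at 0.755 ± 0.358 CPM with AOA and 1.59 ± 0.629 CPM with HT-DNA+AOA.

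Slco4a1 and Ceacam1 were counted in Mock cells and were lower with AOA. Slco4a1, the organic anion transporter, had 122, 107 and 129 counts in Mock cells and 5, 12 and 7 with AOA. It had 35, 39 and 29 counts with HT-DNA and 7, 9 and 9 with HT-DNA+AOA. With aspartate it had 128, 114 and 204 counts, and 99, 94 and 75 with HT-DNA as well. Its mean levels ran from 6.71 ± 1.64 CPM with AOA+Asp through 5.37 ± 0.674 in Mock cells, 4.29 ± 0.651 with HT-DNA+AOA+Asp and 1.63 ± 0.315 with HT-DNA to 0.455 ± 0.0857 with HT-DNA+AOA and 0.394 ± 0.129 with AOA. In this order AOA+Asp overlapped Mock and HT-DNA+AOA overlapped AOA, and the other neighbours did not overlap.

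Ceacam1, the adhesion molecule, had 41.3, 44.4 and 25.7 counts in Mock cells and 8, 1 and 4.48 with AOA. The HT-DNA libraries had 26.8, 23.3 and 22 counts and the HT-DNA+AOA libraries had 13, 9 and 6.83. With aspartate the counts were 19.4, 20.6 and 28 without HT-DNA and 12, 21.2 and 17.3 with it. Its mean levels were 1.65 ± 0.381 CPM in Mock cells, 1.14 ± 0.206 with HT-DNA, 1.03 ± 0.147 with AOA+Asp, 0.798 ± 0.215 with HT-DNA+AOA+Asp, 0.52 ± 0.14 with HT-DNA+AOA and 0.23 ± 0.186 with AOA. Neighbours in this order overlapped except for the last 2 on rounded counts. There the lowest HT-DNA+AOA library was at 0.4174 CPM and the highest AOA library at 0.4139 CPM. This gap came from rounding 6.83 to 7, and on the deposited values these groups overlapped too.

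**Figure D1:**
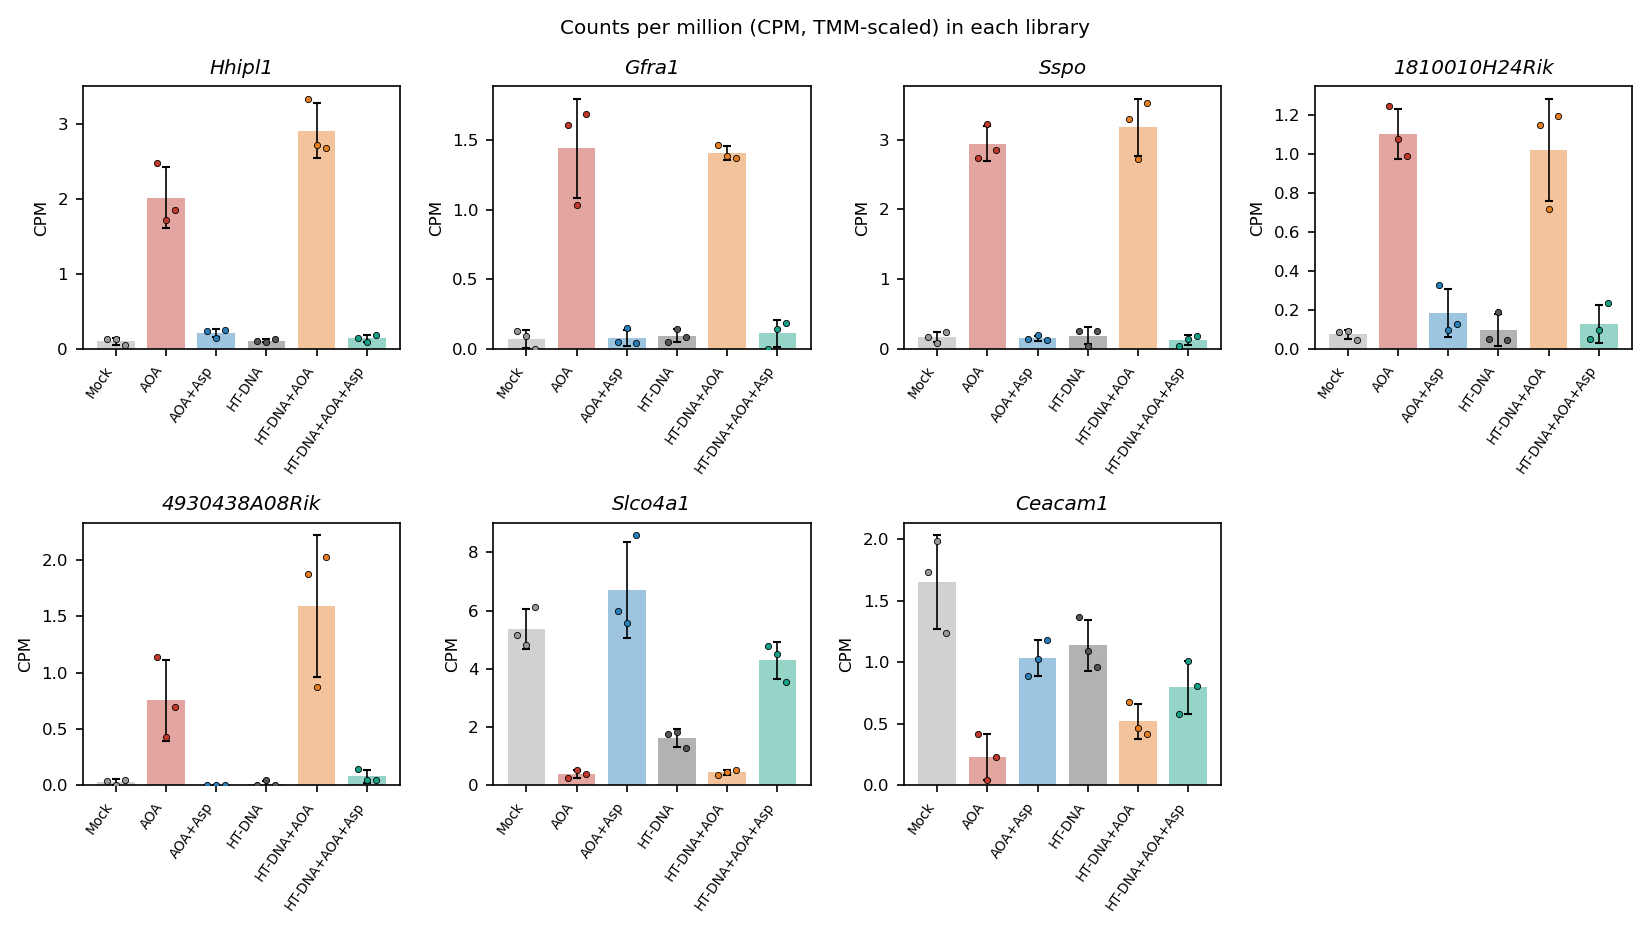
Level in CPM (linear axis from 0) of the 7 genes in the 6 groups; points are the 18 libraries, bars the mean of 3 and error bars the SD. The upper row and 4930438A08Rik stand up only in AOA and HT-DNA+AOA, while Slco4a1 and Ceacam1 are lowest there.

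Levels of different genes were compared per length, as CPM per kilobase of merged exons in the GENCODE vM21 annotation. In AOA cells 1810010H24Rik was highest of the 5 genes at 0.654 CPM per kilobase, followed by Hhipl1 and 4930438A08Rik at 0.361 each, Gfra1 at 0.263 and Sspo at 0.185. In HT-DNA+AOA cells the order was 4930438A08Rik at 0.761, 1810010H24Rik at 0.605, Hhipl1 at 0.521, Gfra1 at 0.257 and Sspo at 0.2. Slco4a1 in Mock cells was at 1.12 and Ceacam1 at 0.284 CPM per kilobase. Sspo, with the most counts of the 5, also had the longest merged exons, at 15863 bases against 1685 for 1810010H24Rik.

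The AOA effect itself chose these genes and is given without a test. Summed over 3 libraries and divided by library size, the ratio of AOA to Mock was 19.2 for Hhipl1 (exact 95% counting interval 9.02 to 48.7), 18.8 for Gfra1 (7.74 to 59.4) and 18 for Sspo (9.82 to 36.7). It was 14.8 for 1810010H24Rik (6.02 to 47.0) and 24.6 for 4930438A08Rik (6.42 to 210), which rests on 2 Mock counts. For Slco4a1 the ratio was 0.075 (0.0474 to 0.113) and for Ceacam1 it was 0.131 (0.0676 to 0.233). These intervals cover counting error only. By fitted log2 fold change the rises ranked 6 (4930438A08Rik), 8 (Hhipl1), 10 (Gfra1), 12 (Sspo) and 16 (1810010H24Rik) of 14263 genes, and the falls ranked 9 (Slco4a1) and 20 (Ceacam1).

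With HT-DNA in both groups the ratios of HT-DNA+AOA to HT-DNA again lay well above 1 for the 5 genes that were higher with AOA. They were 26.7 for Hhipl1 (12.6 to 67.3), 15 for Gfra1 (6.58 to 42.0), 16.8 for Sspo (9.37 to 33.1) and 10.7 for 1810010H24Rik (4.64 to 30.5). For 4930438A08Rik 87 counts stood against 1, a ratio of 100 with an interval of 17.5 to 4000. The ratio was 0.28 for Slco4a1 (0.173 to 0.436) and 0.464 for Ceacam1 (0.291 to 0.723). Libraries of the groups compared did not overlap for any of the 7 genes in either AOA comparison, as was so for 59.4% of the 14263 genes tested without HT-DNA and 44.8% with it. The choice of the genes fixed this, and nothing is read from it.

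Each gene had to pass a filter on low counts before it was tested, and all 7 did, but in 5 of them only libraries with AOA and no aspartate reached 10 counts. Those 5 therefore passed through the group in which they were high. A fold change is given where at least 1 library of the groups compared had 10 counts. Where none had, the counts above stand alone, a limit that was set after the values were seen.

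Aspartate was compared with its absence in cells given AOA, which asks whether the expression seen with AOA alone was still present when aspartate was supplied. The 5 genes that AOA raised were lower with aspartate, and Slco4a1 and Ceacam1 were higher. These tests use the AOA libraries in which the genes had been chosen as high or low, so their p-values are not independent of the choice. The same holds for every comparison below that uses Mock, AOA, HT-DNA or HT-DNA+AOA libraries. For both aspartate comparisons the choice also favours the directions seen, so nothing is read from how many of the 7 genes passed. Without HT-DNA, 5 of the 7 genes fell and 2 rose in the quasi-likelihood test of edgeR, adjusted by the Benjamini-Hochberg method over all genes tested, where 22.8% of the 14263 genes tested fell and 23.5% rose.

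Hhipl1 fell by 3.21 on the log2 scale with aspartate (SE 0.31, edgeR adjusted p = 2e-07), from 2.02 to 0.211 CPM. Sspo fell by 4.22 (SE 0.368, edgeR adjusted p = 5.83e-08) and Gfra1 by 4.12 (SE 0.565, edgeR adjusted p = 1.17e-05). 1810010H24Rik fell by 2.55 (SE 0.46, edgeR adjusted p = 0.000197). For 4930438A08Rik 44 counts with AOA stood against 0 with AOA+Asp, at least 16.1-fold lower when 3 counts over the group are taken as the floor, and at least 12.5-fold by the exact 95% counting interval (edgeR adjusted p = 5.26e-05). In the other direction, Slco4a1 rose by 4.05 (SE 0.264, edgeR adjusted p = 1.32e-09) and Ceacam1 rose by 2.20 (SE 0.443, edgeR adjusted p = 0.000543). Single libraries moved some of these values by over 1.5 times. Ceacam1 was at 2.99 without AOA replicate 1, 1810010H24Rik at -3.22 without AOA+Asp replicate 1 and Gfra1 at -4.83 without AOA+Asp replicate 2. In each of the 7 genes the 3 AOA+Asp libraries lay outside the range of the 3 AOA libraries. The choice of genes by their AOA libraries favours this, and the share of all genes was not counted, so nothing is read from it.

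With HT-DNA in both groups, 5 genes fell and 1 rose, where 23.9% and 23.7% of the genes tested did. Hhipl1 fell by 4.29 (SE 0.326), Sspo by 4.57 (SE 0.382), 4930438A08Rik by 4.21 (SE 0.601), Gfra1 by 3.59 (SE 0.537) and 1810010H24Rik by 2.93 (SE 0.503). The edgeR adjusted p of these falls was highest for 1810010H24Rik, at 0.000111. Slco4a1 rose by 3.23 (SE 0.271), from 0.455 to 4.29 CPM. Ceacam1 stood at 0.798 CPM with aspartate and 0.52 without, a log2 difference of 0.61 (SE 0.40, edgeR adjusted p = 0.222), and its libraries overlapped. Leaving out any 1 of these 6 libraries, those of HT-DNA+AOA included, left 5 falls and 1 rise. The size of some falls moved by over 1.5 times, to -4.89 for 4930438A08Rik without HT-DNA+AOA+Asp replicate 1, and to -3.70 for 1810010H24Rik and -4.17 for Gfra1 without HT-DNA+AOA+Asp replicate 3.

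**Figure D2:**
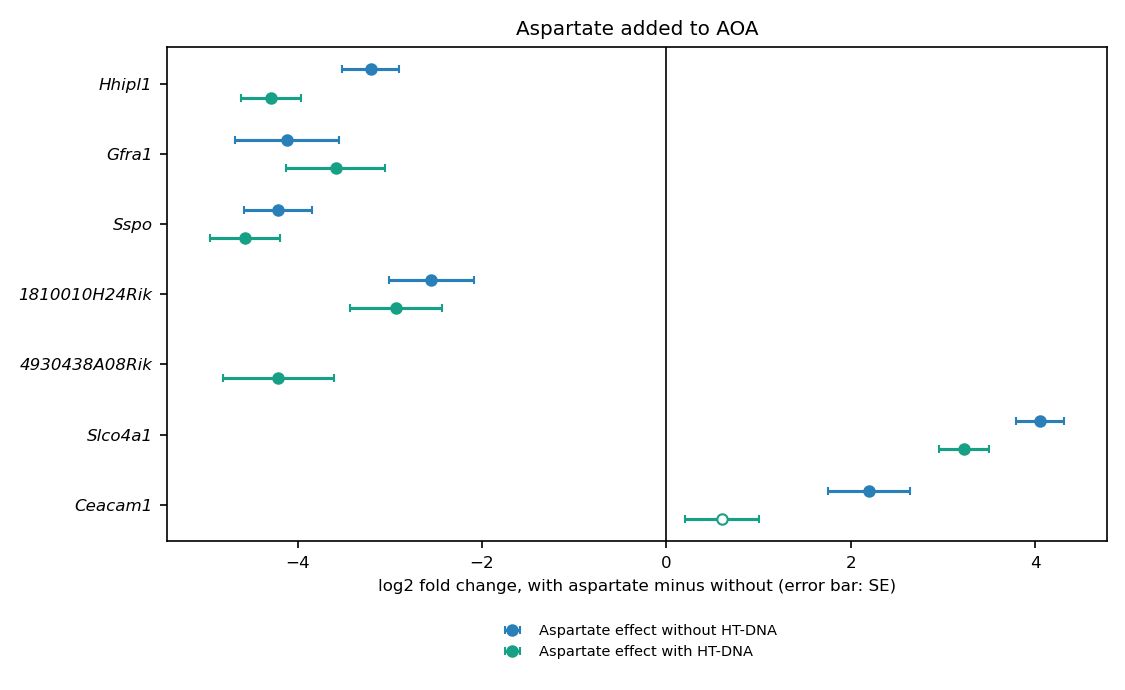
Fitted log2 fold change of each gene when aspartate was added to AOA, without HT-DNA (blue) and with HT-DNA (green); error bars are the SE, and filled points have an edgeR adjusted p under 0.05. The 5 genes raised by AOA lie to the left of 0 and Slco4a1 to the right in both; the open point is Ceacam1 with HT-DNA, and 4930438A08Rik without HT-DNA is left out because its AOA+Asp libraries were at 0.

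Whether the aspartate effect differed with and without HT-DNA was tested as an interaction, which 1.05% of the genes tested passed in either direction. Of the 7 genes 0 passed with edgeR and 0 with DESeq2, which gave no adjusted p for 3 of them, and 1 had an unadjusted p under 0.05. That gene was Ceacam1, with a difference of -1.59 (SE 0.612, edgeR adjusted p = 0.307). The difference was -1.08 for Hhipl1 (SE 0.514, edgeR adjusted p = 0.562) and -0.83 for Slco4a1 (SE 0.431, edgeR adjusted p = 0.545).

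AOA+Asp cells were then compared with Mock cells, to see how far expression with aspartate stood from that of cells that received neither. Here 0 of the 7 genes passed with edgeR, 0 with DESeq2 (no adjusted p for 3) and 0 had an unadjusted p under 0.05, while 6.47% of all genes tested passed. Slco4a1 was at 6.71 CPM with AOA+Asp and 5.37 CPM in Mock cells, a log2 difference of 0.33 (SE 0.187, edgeR adjusted p = 0.331). Ceacam1 was at 1.03 against 1.65 CPM, a log2 difference of -0.68 (SE 0.328, edgeR adjusted p = 0.244), and its libraries did not overlap. The other 5 genes had 0 to 7 counts in every library of both groups, so only a large difference would have been detectable at this depth. For Hhipl1, 14 counts over the AOA+Asp libraries stood against 7, a ratio of 2.04 (exact 95% counting interval 0.77 to 5.97), and for 1810010H24Rik 12 stood against 5, a ratio of 2.45 (0.802 to 8.87). In CPM the libraries of these genes did not overlap either, with AOA+Asp above Mock, but their counts tied. The lowest AOA+Asp and the highest Mock library each had 3 counts for Hhipl1 and 2 for 1810010H24Rik. The gap in CPM therefore came from the scaling by library size alone. For how many of all genes tested the libraries did not overlap here was not counted.

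HT-DNA+AOA+Asp cells were compared with HT-DNA cells in the same way. Slco4a1 was higher with HT-DNA+AOA+Asp than with HT-DNA alone, at 4.29 against 1.63 CPM, a rise of 1.40 on the log2 scale (SE 0.216, edgeR adjusted p = 9.86e-05). It was the only one of the 7 genes that passed, where 46.6% of the genes tested did in either direction, and whether its difference here differs from that between AOA+Asp and Mock cells was not tested. Ceacam1 stood at 0.798 against 1.14 CPM (log2 difference -0.50, SE 0.354, edgeR adjusted p = 0.256). The 5 others had 0 to 6 counts in every library of both groups.

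HT-DNA was compared with its absence at each level of AOA and aspartate. Without AOA, Slco4a1 fell by 1.72 on the log2 scale (SE 0.213, edgeR adjusted p = 8.49e-06), from 5.37 to 1.63 CPM, and the groups did not overlap. Both groups are sides of the AOA comparisons for which Slco4a1 was chosen, the Mock libraries as those in which it was high, so this p is not independent of the choice. It was again the only gene of the 7 that passed, where 48.2% of the genes tested did. Ceacam1 was at 1.14 CPM with HT-DNA and 1.65 CPM in Mock cells (log2 difference -0.54, SE 0.326, edgeR adjusted p = 0.178). The 5 genes raised by AOA had at most 6 counts in any library of Mock or HT-DNA cells, against at least 10 in every library with AOA and no aspartate.

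In cells with AOA, 0 of the 7 genes passed for HT-DNA with edgeR, where 13.4% of all genes tested did, and 0 passed with DESeq2, which gave no adjusted p for 3. The 3 genes with an unadjusted p under 0.05 were Hhipl1, 4930438A08Rik and Ceacam1, each with a higher mean in HT-DNA+AOA. Hhipl1 was at 2.92 against 2.02 CPM (log2 difference 0.53, SE 0.229, edgeR adjusted p = 0.142). 4930438A08Rik was at 1.59 against 0.755 CPM (1.08, SE 0.428, edgeR adjusted p = 0.111), with overlapping libraries. Ceacam1 was at 0.52 against 0.23 CPM (1.23, SE 0.498, edgeR adjusted p = 0.117), and without AOA replicate 1 it passed, at 2.01 (edgeR adjusted p = 0.0372). Gfra1, Sspo, 1810010H24Rik and Slco4a1 had log2 differences of -0.02, 0.11, -0.12 and 0.17, with SEs of 0.252 to 0.383. How far the HT-DNA effect differs between cells with and without AOA equals the difference between the AOA effects that chose the genes, and it was not tested.

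HT-DNA+AOA+Asp against AOA+Asp was the only comparison that used no library of either AOA comparison. Of the 7 genes 0 passed with edgeR and 0 with DESeq2 (no adjusted p for 3), while 3.45% of the genes tested passed with edgeR, and 2 had an unadjusted p under 0.05. Those were Slco4a1, at 4.29 against 6.71 CPM (log2 difference -0.65, SE 0.191, edgeR adjusted p = 0.0707), and 4930438A08Rik, with 5 counts against 0. Slco4a1 did not overlap between the groups, and it passed when these 6 libraries alone were fitted (edgeR adjusted p = 0.00583). Slco4a1 thus had a lower mean with HT-DNA both in cells without AOA and in cells with AOA and aspartate, and whether these effects differed in size was not tested.

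**Figure D3:**
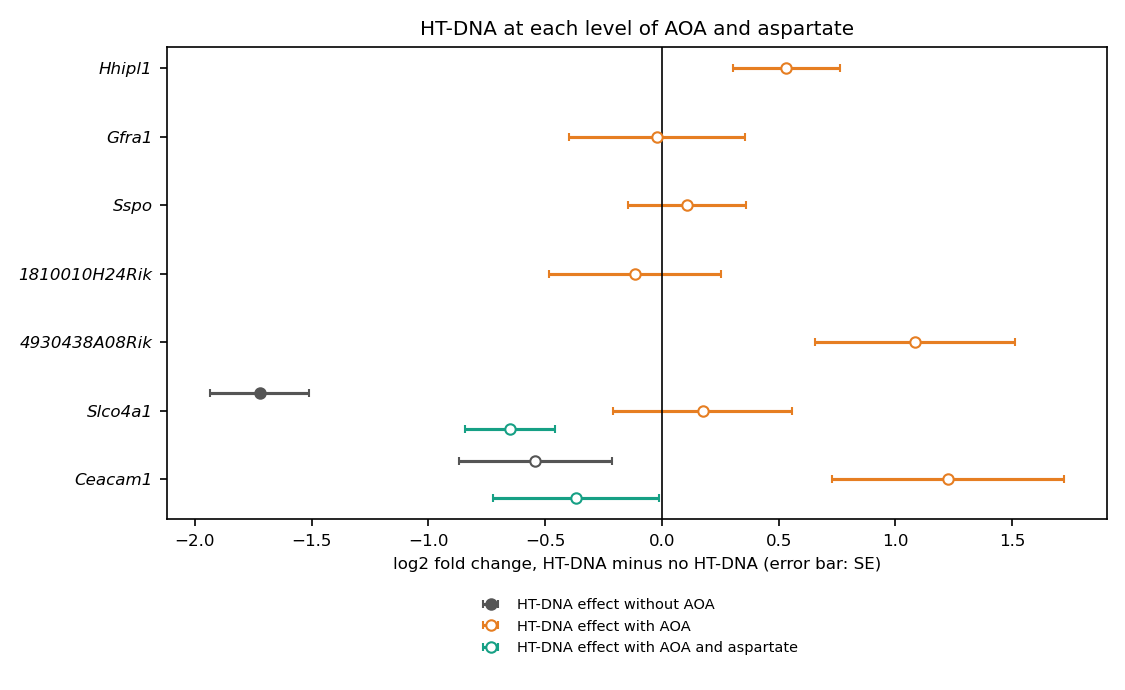
Fitted log2 fold change with HT-DNA for cells without AOA (grey), with AOA (orange) and with AOA and aspartate (green); error bars are the SE, and filled points have an edgeR adjusted p under 0.05. Values are shown only where a library had at least 10 counts; the 1 filled point is Slco4a1 without AOA, at -1.72.

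Genes of families or pathways to which Hhipl1, Gfra1, Sspo, Slco4a1 and Ceacam1 belong were examined next. The lists were assembled with earlier results of these data known, and none was made for 1810010H24Rik or 4930438A08Rik. Hhipl1 belongs to the Hedgehog-interacting family. Hedgehog ligands bind Patched, which frees Smo to activate the Gli transcription factors, and Gas1, Boc and Cdon are co-receptors. Of 17 other Hedgehog genes 12 were tested. With aspartate, 4 were higher and 1 was lower without HT-DNA, and 5 were higher and 1 lower with HT-DNA. Of all genes tested 23.5% were higher and 22.8% lower without HT-DNA, and 23.7% and 23.9% with it, so the share of Hedgehog genes that passed in either direction was near that of all genes. The median log2 difference of the 12 was 0.141 and 0.397, against -0.00913 and -0.0115 for all genes tested.

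Gas1 rose with aspartate by 0.85 (edgeR adjusted p = 2.51e-05) and, with HT-DNA, by 1.06 (SE 0.136, edgeR adjusted p = 4.95e-06). Gli1, itself a target of the pathway, rose by 0.72 (SE 0.131) and 0.75 (SE 0.137). It was at 10.6 CPM in Mock cells, 4.55 with AOA and 7.51 with AOA+Asp. Of the 12 tested Hedgehog genes it was the 1 that differed between AOA+Asp and Mock, where 6.47% of all genes tested did. This difference was -0.50 (SE 0.122, edgeR adjusted p = 0.0173). Disp1, which releases Hedgehog from producing cells, rose by 0.61 and 0.68, and Gli3 by 0.50 and 0.59. Boc fell by 0.90 (SE 0.231) and 0.62 (SE 0.232). Ptch1 passed only with HT-DNA, at 0.40 (SE 0.11, edgeR adjusted p = 0.00604), against 0.20 (SE 0.109, edgeR adjusted p = 0.136) without it, and the difference between these did not pass (edgeR adjusted p = 0.751). Between HT-DNA+AOA+Asp and HT-DNA cells, 2 of the 12 were higher and 4 lower, where 46.6% of all genes tested passed in either direction. With HT-DNA against its absence, 6 of the 12 passed in either direction without AOA, near the 48.2% of all genes tested, and 1, Gas1, passed with AOA and with AOA+Asp, where 13.4% and 3.45% of all genes did. Shh and Hhip had no count in any library.

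**Figure D4:**
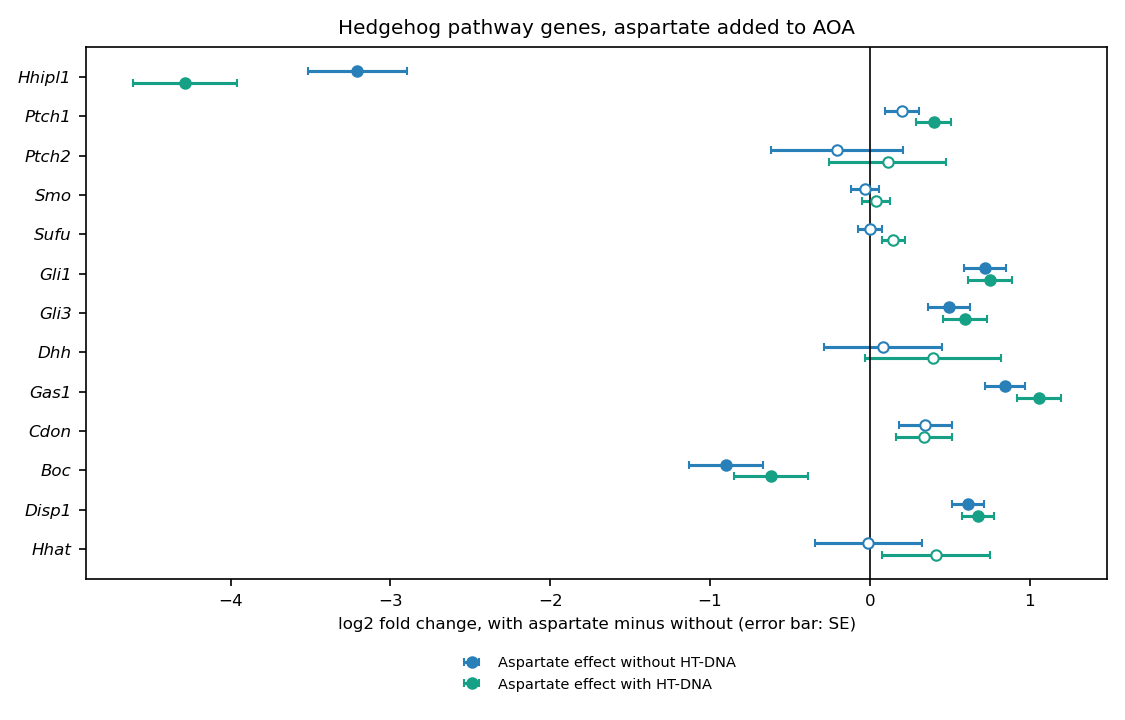
Fitted log2 fold change of Hhipl1 and the 12 other tested Hedgehog genes when aspartate was added to AOA, without HT-DNA (blue) and with HT-DNA (green); error bars are the SE, and filled points have an edgeR adjusted p under 0.05. Gas1, Gli1, Gli3 and Disp1 lie to the right of 0 in both comparisons, and Hhipl1 and Boc to the left.

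Of 11 other genes of the GDNF family, which signals through Ret, only 3 were tested. Ret, the receptor that Gfra1 works with, had 0.493 CPM in Mock cells, 0.348 with AOA, 0.252 with HT-DNA and 0.0892 with HT-DNA+AOA. With HT-DNA it fell in AOA cells (log2 difference -1.89, SE 0.618, edgeR adjusted p = 0.0495), just past the threshold and on 5 against 21 counts over the groups. Without AOA it stood at -0.96 (SE 0.462, edgeR adjusted p = 0.0956), and whether these effects differ was not tested. The ligand Gdnf had at most 0.184 CPM in any group mean. Gdf15, a distant relative of the ligands and a known stress-induced cytokine, fell with aspartate by 1.22 (SE 0.104, edgeR adjusted p = 4.65e-08) and by 1.25 with HT-DNA (SE 0.101, edgeR adjusted p = 1.52e-08). Its receptor Gfral was at 0. The adhesion molecule Ncam1, another partner of Gfra1, rose with aspartate in HT-DNA cells by 0.56 (SE 0.149, edgeR adjusted p = 0.00496) and stood at 0.30 without HT-DNA (SE 0.152, edgeR adjusted p = 0.116). The difference between these did not pass (edgeR adjusted p = 0.775).

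Only 2 of 8 other genes with thrombospondin repeats, the feature of Sspo, were tested. Spon2 passed with aspartate in HT-DNA cells, at 0.49 (SE 0.17, edgeR adjusted p = 0.0237), against 0.20 without HT-DNA (SE 0.171, edgeR adjusted p = 0.357), and the difference between these did not pass (0.29, SE 0.241, edgeR adjusted p = 0.775). Thbs2 passed in neither background.

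Among 11 other organic anion transporters of the Slco family, the relatives of Slco4a1, 2 were tested and they moved in opposite directions. Slco2b1 rose with aspartate by 0.96 (SE 0.231) and 0.95 (SE 0.26), the same direction as Slco4a1. Slco2a1, a prostaglandin transporter, fell by 0.78 (SE 0.0775) and 0.62 (SE 0.0776). Of 8 genes of thyroid hormone transport and action 2 were tested, and Slc7a5, which carries large neutral amino acids as well as thyroid hormones, fell by 1.04 (SE 0.0826) and 0.82 (SE 0.0823). The receptor Thra was not called for aspartate in either background (edgeR adjusted p = 0.552 and 0.71).

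Of 10 other genes of the CEA family and its partners 5 were tested. Ptpn6, the phosphatase SHP-1 that binds the tail of Ceacam1, rose with aspartate by 0.68 (SE 0.182, edgeR adjusted p = 0.00512) and by 1.18 with HT-DNA (SE 0.201, edgeR adjusted p = 0.000108). Ceacam16 fell with aspartate in HT-DNA cells by 1.29 (SE 0.354, edgeR adjusted p = 0.0059), where Ceacam1 did not pass. Without HT-DNA Ceacam16 differed by -0.40 (SE 0.345, edgeR adjusted p = 0.357), and the difference between these did not pass (-0.89, SE 0.498, edgeR adjusted p = 0.585).

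The genes next to each member in GENCODE vM21 were examined to see whether they moved with it. Next to 4930438A08Rik lies Irgm2, an interferon-inducible GTPase, on the same strand. Irgm2 was at 1.63 ± 0.511 CPM in Mock cells and 1.51 ± 0.333 with AOA. In that comparison, which chose it, 4930438A08Rik was 24.6-fold higher, on 44 against 2 counts (exact 95% counting interval 6.42 to 210). Irgm2 was at 29.9 ± 4.78 CPM with HT-DNA+AOA against 3.87 ± 0.251 with HT-DNA. With aspartate Irgm2 fell by 2.76 in HT-DNA cells (SE 0.165, edgeR adjusted p = 2.99e-10) and differed by -0.59 without HT-DNA (SE 0.257, edgeR adjusted p = 0.0671), and this difference between backgrounds passed the interaction test (-2.17, SE 0.312, edgeR adjusted p = 0.000905). Zfp692, on the other side, was not called for aspartate in either background.

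Il4i1, the other tested gene that the deposited table assigns L-amino-acid oxidase activity, was looked up after the values of 4930438A08Rik were seen. It was at 4.61 ± 0.334 CPM in Mock cells and 12.8 ± 0.917 with AOA. With aspartate it fell by 1.06 (SE 0.138, edgeR adjusted p = 6.79e-06), and by 1.00 in HT-DNA cells (SE 0.141, edgeR adjusted p = 1.31e-05). The third gene with this term, Lao1, had at most 1 count in a library.

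**Figure D5:**
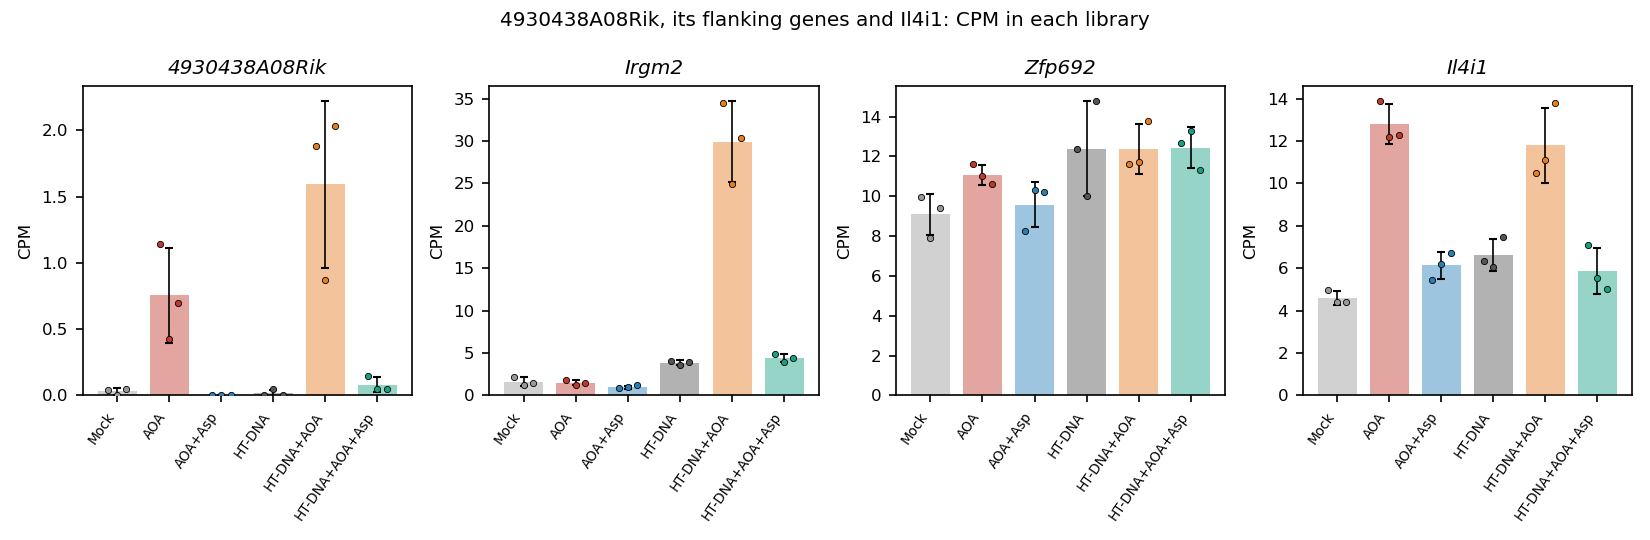
Level in CPM (linear axis from 0) of 4930438A08Rik, of its neighbours Irgm2 and Zfp692 and of Il4i1 in the 6 groups; points are libraries, bars the mean of 3 and error bars the SD. 4930438A08Rik and Il4i1 are high in AOA and HT-DNA+AOA, whereas Irgm2 is high in HT-DNA+AOA, at 29.9 CPM.

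Bptf, a chromatin remodeling factor next to 1810010H24Rik, moved against it, with a rise of 0.76 with aspartate (SE 0.148, edgeR adjusted p = 0.000399) and of 0.63 in HT-DNA cells (SE 0.149, edgeR adjusted p = 0.00207). Atrnl1 next to Gfra1 was at 25 ± 0.739 CPM in Mock cells and 19 ± 1.91 with AOA, and it rose with aspartate in HT-DNA cells (0.36, SE 0.114, edgeR adjusted p = 0.0145) and stood at 0.26 without HT-DNA (SE 0.112, edgeR adjusted p = 0.0609), effects whose difference did not pass (edgeR adjusted p = 0.915). The neighbours of Hhipl1 (Ccdc85c), Sspo (Zfp862-ps) and Ceacam1 (the antisense gene 4732471J01Rik) that were tested were not called for aspartate in either background. The remaining neighbours, among them Cyp46a1, Zfp467, Ntsr1 and Ceacam2, did not pass the filter.

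Reads that could belong to another gene were counted by shared 31-base sequences, on either strand, in GENCODE vM21 transcripts. Of the sequences of Ceacam1 37.6% were shared, 36.2% with Ceacam2, so its counts are uncertain. Ceacam2 had 0 to 10 counts in any library. Hhipl1 shared 3.24%, mainly with the antisense gene 4930478K11Rik, and Gfra1 shared 7.05% with the antisense gene Gm16277. Those antisense genes had at most 2 and 3 counts in a library, and whether the counting used strand is not given in the sources used here. The other 4 genes shared none.

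The genes whose log2 CPM over the 18 libraries was most like that of each member are given as a description. All points share the same treatments, and the libraries with AOA and no aspartate stand apart from the rest. Hhipl1 was most like Dusp10 (r = 0.981), Rab30 (0.981) and Ppp1r15a (0.977), and Ppp1r15a is the phosphatase subunit that acts on eIF2α. Gfra1 was most like Pycr1 (0.976), an enzyme of proline synthesis, Wwp2 (0.965) and Pspc1 (0.958). Sspo was most like Fbxl12 (0.978), Steap1 (0.977) and Prr32 (0.977).

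1810010H24Rik was most like Rnf11 (0.959), Hhipl1 (0.952) and Rfk (0.949), and so Hhipl1 was the only one of the 7 genes that appeared beside another. 4930438A08Rik was most like the chemokine gene Cxcl2 (0.973), Tcam1 (0.971) and Stard5 (0.97). Slco4a1 was most like Mrgprf (0.977), Ndrg4 (0.976) and Fkbp14 (0.972). Ceacam1 had the lowest values, with Gimap9 (0.934), Apol6 (0.897) and Inka2 (0.893).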

How the data were processed

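RNA of 18 L929 libraries (6 groups of 3, taken from the sample labels) was analysed. The authors deposited expected counts (estimated reads per gene, not normalized) for 57180 genes, of which 11.6% were not whole numbers; the aligner, counter, build and strand setting are not given in the sources used here. The design assumed whole counts, so values were rounded. The table's 6 columns of the authors' group means were not used. The deposited counts of all 18 libraries were fitted together in R 4.3.3 with edgeR 4.0.16 (filterByExpr, minimum count 10, minimum total 15; TMM; robust quasi-likelihood test), with Benjamini-Hochberg adjustment over 14263 genes and a threshold of 0.05. Totals were 17901546 to 24057284 counts, and a count of 0 allows up to 3. Intervals of count ratios are exact and cover counting error only.

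The 7 genes and all lists were chosen with earlier results of these data known. The text names the 7 genes, list genes that were called, the 3 genes most alike by Pearson's r of log2 CPM (prior count 2), and the nearest gene on each side in GENCODE vM21, which may not be the authors' annotation. Of called list genes at most 5 were named for a comparison, otherwise the 3 with the largest change, and the comparisons of list genes not printed are left out for length; Il4i1, Lao1 and any further list gene were chosen after their values were seen. A fold change is given only where a library of the groups compared had at least 10 counts, a limit chosen after seeing the data.

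Alternatives were DESeq2 1.42.0, RLE normalization, library totals, no filter, at least 10 counts in every library, only the libraries compared, a replicate block, leaving out single libraries, and other prior counts. Steps were tested on simulated data. P-values measure the spread between independent cultures of 1 line.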

Additional observations from a re-analysis of the deposited data

How the results depend on the processing

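Slco4a1 and the 5 genes raised by AOA kept their direction and stayed past the threshold for both aspartate comparisons under DESeq2, RLE normalization, library totals, no filter, only the libraries compared and the replicate block, where a fold change was given, and so did Ceacam1 without HT-DNA. All these fits reuse the AOA or HT-DNA+AOA libraries by which the genes were chosen. They show how far the values depend on the method and are not independent of the choice. A filter of at least 10 counts in every library removed all 7 genes, so the numbers called became 0 for aspartate without HT-DNA (2 higher and 5 lower before), for aspartate with HT-DNA (1 higher and 5 lower), for HT-DNA+AOA+Asp against HT-DNA and for HT-DNA without AOA. Fitting only the libraries compared added 1 lower gene, Slco4a1, for HT-DNA with AOA and aspartate (-0.65, edgeR adjusted p = 0.00583, against 0.0707). With a prior count of 2 the fitted AOA effects of the 5 low genes were smaller, 2.74 to 3.55 without HT-DNA and 2.55 to 3.91 with it, as a larger prior count draws low counts together.

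Leaving out 1 library at a time kept 2 higher and 5 lower for aspartate without HT-DNA, with Ceacam1 at 1.64 to 2.99, Gfra1 at -4.83 to -3.82 and 1810010H24Rik at -3.22 to -2.28 (-3.70 to -2.56 with HT-DNA), and gave 0 to 1 higher for HT-DNA with AOA, the 1 being Ceacam1 without AOA replicate 1. Uncalled differences changed sign in some of these fits. For HT-DNA with AOA, Gfra1 ran from -0.22 to 0.10, 1810010H24Rik from -0.24 to 0.0853 and Slco4a1 from -0.050 to 0.45. For the aspartate interaction, 1810010H24Rik ran from -1.15 to 0.29, Sspo from -0.74 to 0.0177 and Gfra1 from -0.0505 to 1.25.

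Replicate numbers did not pair the samples, since deviations of same-numbered libraries correlated at -0.11 to 0.278 (median 0.00811) over 45 pairs of libraries. With the number as a block, 2 genes were higher and 5 lower with aspartate without HT-DNA, and Hhipl1 fell by 3.21 (edgeR adjusted p = 4.04e-07); no count of called genes changed. With a prior count of 0.5 in place of 2, 1 of the 3 genes most like Gfra1 and 1 of those most like 4930438A08Rik were shared. Depth limits the 5 genes outside AOA, where 0 to 7 counts were found per library.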
